A study of Mus musculus with 35 samples.

Results

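The step of CTLs from pH 7 to pH 6.6 while IL-2 was supplied was followed in 10 of the 35 RNA-seq libraries of the series. They were chosen by their labels: 5 came from OT-I CTLs kept for 24 h at pH 6.6 with murine IL-2 at 200 IU/mL, and 5 from sister cultures kept for 24 h at pH 7 with the same dose. The replicate numbers 1 to 5 pair 1 library of each group. OT-I CTLs are mouse CD8+ T cells that carry a single transgenic T-cell receptor. For this study they were activated with antibodies to CD3 and CD28 and then expanded in IL-2. Both groups were therefore effector cells grown in vitro, and dead cells were removed over Ficoll before RNA extraction. Another 4 groups of 5 libraries serve as reference where named: pH 7.4 with IL-2 at 200 IU/mL, and pH 7.4, pH 7 or pH 6.6 without IL-2, each for 24 h. The remaining 5 libraries were taken at 0 h and entered the model for its estimate of the spread. The comparison asks which genes respond when the medium goes from mild acidity to the acidity that tumors can reach. It also asks which of these respond in this lower step alone, and not already in the upper step from pH 7.4 to pH 7.

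IL-2 binds a receptor made of an alpha chain (Il2ra), a beta chain (Il2rb) and the common gamma chain (Il2rg). JAK1 and JAK3 bound to the receptor then activate the transcription factor STAT5, and the mTORC1 and c-Myc pathways that keep an effector T cell growing and dividing. When IL-2 signaling falls, T cells are known to shrink, to leave the cell cycle and to express again genes of resting and memory cells such as Tcf7, Klf2, S1pr1 and Il7r. Protons are also sensed directly, by G protein-coupled receptors on the cell surface and through the internal pH.

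The 10 libraries held 16721319 to 28273801 reads counted on genes, and the smallest was replicate 1 at pH 6.6. Reads on mitochondrial genes made up 1.36% to 2.01% of the counts at pH 7 and 0.896% to 1.15% at pH 6.6. Reads outside annotated genes had a median share of 5.13% at pH 7 and 7.86% at pH 6.6. These shares moved with the step, and their part in the results was not tested. In a principal component analysis of the 15 libraries with IL-2, the first component held 69.1% of the variance and placed the pH 6.6 libraries at 71.8 to 96.1, the pH 7 libraries at -35.8 to -28.6 and the pH 7.4 libraries at -54.7 to -45.3. The second component (8.02%) set replicate 1 apart at each pH, at 29.6 to 43.8 against at most 7.28 for any other library. The libraries of replicate 1 therefore stood apart, and without this replicate 9667 genes passed the test for the step instead of 10009 with it. The 8 defining markers of CD8 T cells were found in both groups. Their summed level, in CPM (counts per 1000000 after scaling of the libraries), was 8453 to 10311 at pH 7 and 3741 to 5065 CPM at pH 6.6, a sum that includes the granzyme gene Gzmb. Gzmb went from a median of 6091 to 976 CPM, while the other markers had log2 fold changes of -0.42 (Cd8a) to 0.64 (Cd2). Of the markers of B cells, Ms4a1, Pax5 and Cd22 were at 0 in all 10 libraries, as were Csf1r, Elane, Csf3r and S100a9 of myeloid cells, Siglech and Clec9a of dendritic cells, and Pf4, Ppbp and Gp9 of platelets. Summed markers of each other cell type reached at most 53.5 CPM in any library. The myeloid sum went from 7.23 to 15.1 CPM at pH 7 to 16.7 to 31.5 CPM at pH 6.6, and the dendritic cell sum from 0.579 to 1.23 CPM to 12.7 to 23.3 CPM. Of the myeloid markers, Cd68 went from a median of 13.8 to 25.1 CPM, and the medians of the others were at most 0.452 CPM. Within these lists, Zbtb46 (a transcription factor known from dendritic cells) went from a median of 0.626 to 14.8 CPM, and Itga2b (an integrin known from platelets) from 1.47 to 12.4 CPM, while the medians of the other dendritic cell and platelet markers were at most 0.111 CPM. The part of other cells in the results was not tested.

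**Figure D1:**
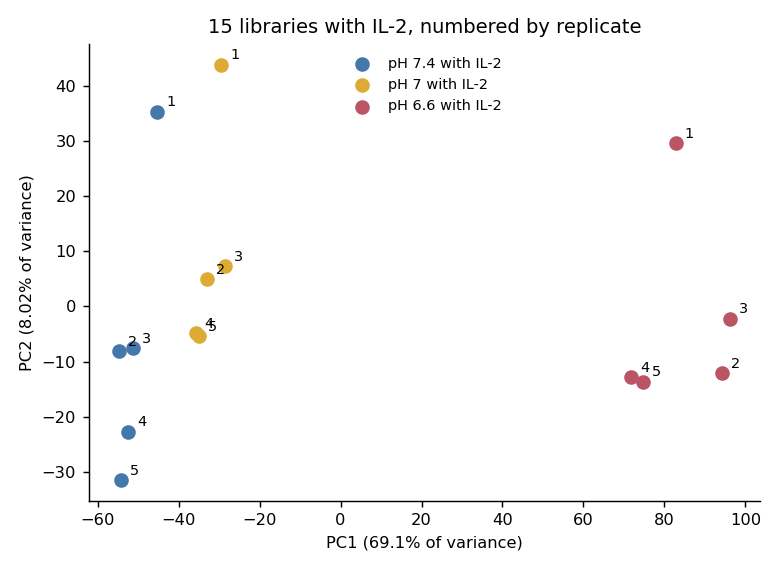
Scores of the 15 libraries with IL-2 on the first 2 principal components of log2 CPM; each point is a library, coloured by pH and numbered by replicate. The pH 6.6 libraries lie at 71.8 to 96.1 on the first component, far from the pH 7 (-35.8 to -28.6) and pH 7.4 libraries (-54.7 to -45.3), and replicate 1 is the highest point of each pH on the second.

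More genes changed in the lower step than in the upper step. Between pH 7 and pH 6.6, 10009 of the 13819 genes tested passed the threshold, which is 72.4% of them. Of all genes tested, 4487 genes (32.5%) were higher and 5522 genes (40%) were lower at pH 6.6 by edgeR's quasi-likelihood test at an adjusted p below 0.05. Of these, 1609 rose and 2215 fell at least 2-fold, that is by at least 1 on the log2 scale. The step from pH 7.4 to pH 7, which also spans 0.4 pH units, changed 2623 genes (19%), of which 1264 (9.15%) were higher and 1359 (9.83%) lower, and at least 2-fold changes were found in 145 and 58 genes. With library size scaling 1659 genes were higher and 866 lower in that step. The upper count fell to 1374 without replicate 2, 1283 without replicate 3 and 1660 without the replicate block, and rose to 4388 when only the groups compared were fitted, while the lower count stayed between 9277 and 9765 with any replicate left out. Both steps share the pH 7 libraries, so their values are set side by side here and no correlation between them was computed. The median size of the log2 fold change over all genes was 0.60 in the lower step and 0.18 in the upper step. The root mean square distance between group means was 1.01 log2 units from pH 7 to pH 6.6 and 0.343 from pH 7.4 to pH 7. Single libraries lay 0.274 to 0.411 from the mean of their own group at pH 7 and pH 6.6. Tested directly, the change per step differed between lower and upper for 6849 genes (49.6%), with 2691 (19.5%) more positive and 4158 (30.1%) more negative in the lower step.

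**Figure D2:**
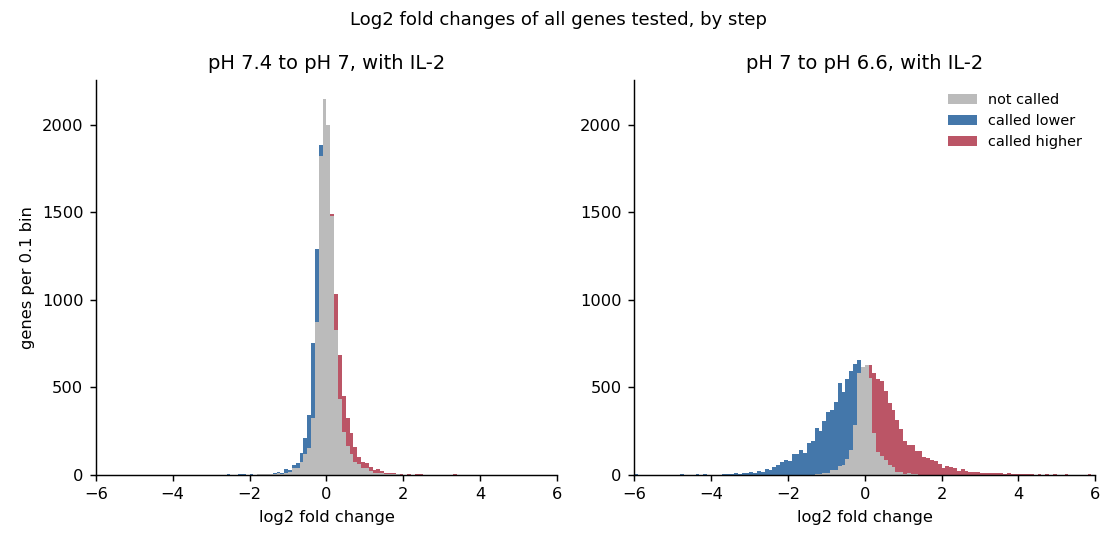
Log2 fold changes of the 13819 genes tested, in bins of 0.1, for the step from pH 7.4 to pH 7 (left) and from pH 7 to pH 6.6 (right) with IL-2; colours mark genes that passed the test as lower or higher, grey those that did not, and 2 genes beyond -6 are drawn at the end of the axis. The right distribution is wide, with a median size of 0.60, and the left is narrow, with a median size of 0.18.

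Among well-expressed genes (mean log2 CPM of at least 3 in the 10 libraries), the largest rise was in Bend4, a gene for a BEN-domain protein at chr5:67392147-67428310, minus strand (GRCm38). Its level was 19.1, 19.6, 17.5, 15.2 and 16.6 CPM at pH 7 and 275, 458, 435, 252 and 308 CPM at pH 6.6, a log2 fold change of 4.28 ± 0.14 (SE, edgeR adjusted p = 3.22e-21). Bcl6 encodes a transcriptional repressor of effector differentiation. It was at 4.61, 3.91, 3.43, 4.43 and 3.21 CPM at pH 7 and 41.4, 60.8, 61.1, 39.5 and 43.7 CPM at pH 6.6, a log2 fold change of 3.66 ± 0.15 (SE, edgeR adjusted p = 1.95e-19). Adora2a encodes the adenosine receptor that raises cAMP in T cells. It was at 2.19, 3.51, 4.35, 3.12 and 3.05 CPM at pH 7 and 29.1, 61.01, 57.8, 38.4 and 38.6 CPM at pH 6.6, a log2 fold change of 3.78 ± 0.15 (SE, edgeR adjusted p = 9.6e-20). In all 3 genes the lowest library at pH 6.6 was several times above the highest at pH 7, so the groups did not overlap, as was the case for 55.7% of all genes tested. Next in size were Klhl24 (3.60 ± 0.15), Tsc22d3 (3.52 ± 0.17; the glucocorticoid-induced leucine zipper), Arl5c (3.40 ± 0.14), Coq8a (3.38 ± 0.23), Col11a2 (3.29 ± 0.22), Tnfaip3 (3.18 ± 0.15) and Vps37b (3.15 ± 0.16), each given as the log2 fold change ± SE. Tnfaip3 encodes A20, an inhibitor of NF-kB signaling. For Vps37b, 42.5% of the exon bases lie under a gene on the opposite strand, and the strand setting used in counting is not stated.

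The largest fall was in Shmt1, which makes one-carbon units from serine in the cytosol (chr11:60788104-60811718, minus strand). It was at 80.03, 70.4, 63.9, 69.8 and 72.5 CPM at pH 7 and 5.55, 3.60, 4.28, 7.65 and 8.33 CPM at pH 6.6, a log2 fold change of -3.60 ± 0.18 (SE, edgeR adjusted p = 2.69e-17). Sdf2l1, an endoplasmic reticulum protein of the unfolded protein response, was at 77.2, 72.4, 69.7, 82.9 and 73.4 CPM at pH 7 and 7.86, 5.04, 3.23, 8.43 and 7.37 CPM at pH 6.6, a log2 fold change of -3.59 ± 0.13 (SE, edgeR adjusted p = 2.51e-20). Ppa1 encodes the cytosolic pyrophosphatase that removes the pyrophosphate left by biosynthesis. Its level was 196, 154, 136, 173 and 178 CPM at pH 7 and 22.7, 12.03, 11.7, 25.2 and 22.5 CPM at pH 6.6, a log2 fold change of -3.17 ± 0.16 (SE, edgeR adjusted p = 1.03e-17). The lowest pH 7 library was several times above the highest pH 6.6 library in each of the 3 genes. In 31.6% of all genes every pH 6.6 library was below every pH 7 library. Tyms, the thymidylate synthase, was at 87.5, 107, 105, 110.2 and 109 CPM at pH 7 and 7.97, 9.95, 9.77, 15.4 and 14.7 CPM at pH 6.6, a log2 fold change of -3.16 ± 0.15 (SE, edgeR adjusted p = 3.39e-18). The cytokine gene Lif was at 219, 224, 215, 215 and 263 CPM at pH 7 and 14.04, 11.6, 9.82, 48.9 and 52.6 CPM at pH 6.6, a log2 fold change of -3.31 ± 0.46 (SE, edgeR adjusted p = 4.81e-07). At pH 6.6, replicates 4 and 5 held several times more Lif than the other replicates, and no library reached the pH 7 range. Tpst1 (-3.43 ± 0.20), the neurofilament gene Nefh (-3.37 ± 0.15), Serpina3f (-3.13 ± 0.34), Jpt2 (-3.13 ± 0.15) and Iigp1 (-3.07 ± 0.28), an interferon-induced GTPase, completed the 10 largest falls.

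These 20 genes, and 11 more described below as changed in the lower step, were searched on both strands for 4 known promoter motifs in the first RefSeq window listed, from 250 bases before to 50 bases after the start site. The motifs were the E-box CACGTG, the cAMP response element TGACGTCA, the E2F motif GGCGGGAA and the CHR element TTTGAA. A window was on hand for 22 of the 31 genes, and 8 held a motif. The 4 with the largest change are printed here, 2 that rose and 2 that fell, and each holds an E-box, the element bound by c-Myc with MAX and by related factors. The sequences are RefSeq's for GRCm38.p6, on the strand of the gene, with the E-box in capitals. Its first base lies 60 bases before the start site in Bcl6, 33 in Tnfaip3, 140 in Ppa1 and 61 in Tyms.
Bcl6, chr16:23988803-23989102, minus strand: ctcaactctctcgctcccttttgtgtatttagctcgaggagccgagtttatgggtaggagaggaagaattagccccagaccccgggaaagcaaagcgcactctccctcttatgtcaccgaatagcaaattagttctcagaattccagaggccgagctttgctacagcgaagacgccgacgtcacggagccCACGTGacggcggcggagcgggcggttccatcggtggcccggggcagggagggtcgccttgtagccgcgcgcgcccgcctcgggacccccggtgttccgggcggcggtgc
Tnfaip3, chr10:19015361-19015660, minus strand: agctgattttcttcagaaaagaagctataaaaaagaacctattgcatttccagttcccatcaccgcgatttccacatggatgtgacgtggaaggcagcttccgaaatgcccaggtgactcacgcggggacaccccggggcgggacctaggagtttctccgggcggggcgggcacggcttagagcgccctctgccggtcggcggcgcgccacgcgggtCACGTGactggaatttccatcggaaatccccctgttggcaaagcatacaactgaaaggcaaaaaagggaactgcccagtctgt
Ppa1, chr10:61648371-61648670, plus strand: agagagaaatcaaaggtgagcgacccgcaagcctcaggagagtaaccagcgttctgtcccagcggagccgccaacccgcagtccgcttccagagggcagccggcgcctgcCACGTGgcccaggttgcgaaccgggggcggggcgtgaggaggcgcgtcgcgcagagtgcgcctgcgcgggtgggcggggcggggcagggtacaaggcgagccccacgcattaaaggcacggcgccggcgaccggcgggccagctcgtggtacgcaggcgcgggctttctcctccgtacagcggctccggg
Tyms, chr5:30073576-30073875, minus strand: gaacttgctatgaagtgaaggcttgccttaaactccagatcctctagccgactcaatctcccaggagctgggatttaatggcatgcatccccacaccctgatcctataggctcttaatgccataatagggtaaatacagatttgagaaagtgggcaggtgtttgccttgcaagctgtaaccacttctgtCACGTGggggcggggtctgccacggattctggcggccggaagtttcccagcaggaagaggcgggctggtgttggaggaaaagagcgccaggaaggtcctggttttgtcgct
The same 6 letters thus stood before 2 genes that rose and 2 that fell. Over the 9977 tested genes with a window, 10.1% held an E-box on either strand. The share was 8.09% among genes called higher by at least 1 and 12.8% among genes called lower by at least 1. These shares describe letters in a window and not binding.

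The question of what changed in the lower step alone was put to each gene in 3 steps. The gene had to change at least 2-fold from pH 7 to pH 6.6, the 2 steps had to differ in the direct test, and the 95% interval of the upper step had to lie within 0.5 of 0 on the log2 scale. Under the same lower limit of expression as above, 375 that rose and 739 that fell met all of these. The rises were led by Bend4, whose upper step was 0.049 ± 0.14 (95% interval -0.23 to 0.32). Zhx2, a transcriptional repressor, was at 5.56, 5.71, 5.53, 4.72 and 4.15 CPM at pH 7 and 33.7, 58.1, 48.1, 35.4 and 42.5 CPM at pH 6.6, a log2 fold change of 3.07 ± 0.14 (SE, edgeR adjusted p = 9.3e-19), after an upper step of 0.15 ± 0.15. Bbc3 encodes the cell death protein PUMA. It was at 10.3, 9.08, 12.4, 9.68 and 8.37 CPM at pH 7 and 60.7, 91.7, 61.4, 62.6 and 65.4 CPM at pH 6.6, a log2 fold change of 2.77 ± 0.19 (SE, edgeR adjusted p = 2.23e-14), after an upper step of 0.061 ± 0.19. The splicing kinase gene Clk1 (2.71 ± 0.19), the kinase gene Plk2 (2.71 ± 0.19) and Ip6k1 (2.36 ± 0.092), an inositol phosphate kinase gene, followed. Of these 6 genes Ip6k1 alone passed the test in the upper step as well, at 0.25 ± 0.089, a call that was lost without replicate 2 (0.22), 3 (0.20) or 4 (0.28) and without the replicate block (0.26). In none of the 6 did a pH 6.6 library fall into the pH 7 range. Every pH 6.6 library was above every pH 7 library in 24.1% of all genes.

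The falls chosen by this rule were led by Dna2, a nuclease and helicase of DNA replication. Its level was 74.6, 79.7, 71.1, 69.7 and 75.9 CPM at pH 7 and 7.16, 7.04, 6.88, 11.3 and 12.1 CPM at pH 6.6, a log2 fold change of -3.04 ± 0.15 (SE, edgeR adjusted p = 5.83e-18). At pH 7.4 it had been at 70.7, 69.4, 68.9, 59.2 and 56.3 CPM, at or below the range of pH 7, and the upper step did not pass the test (0.20 ± 0.13, edgeR adjusted p = 0.317). Pclaf, the PCNA clamp factor, was at 408, 434, 438, 449 and 529 CPM at pH 7 and 47.5, 57.6, 71.5, 64.6 and 74.2 CPM at pH 6.6, a log2 fold change of -2.85 ± 0.20 (SE, edgeR adjusted p = 8.91e-14), after an upper step of -0.11 ± 0.18. The histone chaperone gene Asf1b (-2.72 ± 0.14), Cdca7 (-2.70 ± 0.16), the uracil glycosylase gene Ung (-2.66 ± 0.18) and Gins1 (-2.64 ± 0.17), a subunit of the replicative helicase, followed. The rule that chose these 6 genes required the test of the difference between steps to pass. The differences were -3.24 ± 0.22 for Dna2 to -2.44 ± 0.26 for Gins1.

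Other patterns across the 2 steps were less frequent by the rules used, which kept the same lower limit of expression (mean log2 CPM of at least 3). Graded genes, which passed the test in both steps and changed by at least 0.5 in the same direction in each, numbered 134 rises and 77 falls. Dtx4, a ubiquitin ligase gene of the Notch pathway, was at 9.25, 5.83, 7.18, 5.13 and 5.01 CPM at pH 7.4, then at 30.6, 21.2, 24.4, 19.5 and 15.9 CPM at pH 7 and 95.6, 79.96, 80.5, 67.3 and 75.6 CPM at pH 6.6. It rose by 1.78 ± 0.16 and then by 1.85 ± 0.15, and the steps differed by 0.062 ± 0.27, with a 95% interval of -0.48 to 0.61. Myof rose in both steps as well (1.28 ± 0.17, then 1.70 ± 0.15). The metallothionein genes Mt1 (-1.34 ± 0.15, then -1.79 ± 0.16) and Mt2 (-1.92 ± 0.18, then -0.72 ± 0.19), which bind zinc, and the stearoyl-CoA desaturase gene Scd1 (-1.12 ± 0.19, then -1.35 ± 0.20) fell in both. For Mt2, 73.5% of the exon bases lie under a gene on the opposite strand, and without the replicate block its lower step no longer passed. Ldlrad4 also rose in both (1.37 ± 0.14, then 0.77 ± 0.13) and shares 52.1% of its exon bases with the opposite strand.

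For a change in the upper step alone, a gene had to pass there with a change of at least 0.5. The 2 steps also had to differ in the direct test, and the lower step had to lie within 0.5 of 0 by its interval. Under the same lower limit of expression, 42 that rose and 5 that fell met all of these. Pmepa1, a TGF-beta-induced inhibitor of TGF-beta signaling, was at 56.4, 23.95, 25.2, 24.2 and 18.2 CPM at pH 7.4, then at 86.8, 76.6, 85.8, 63.9 and 54.8 CPM at pH 7 and 82.7, 71.8, 70.4, 53.9 and 50.5 CPM at pH 6.6. Its upper step was 1.37 ± 0.15 and its lower step -0.17 ± 0.14 (edgeR adjusted p = 0.293). Fam19a3, H2-DMa, Scd2, St3gal6 and Dnajc15 were chosen by the same rule, with lower steps from -0.25 (H2-DMa) to 0.18 (Fam19a3). Each of these 5 passed in the lower step under at least 1 other setting, with values from -0.32 (H2-DMa, without replicate 4) to 0.40 (Fam19a3, without replicate 2). Turning genes were called in opposite directions in the 2 steps, with a change of at least 0.5 in each and the same limit of expression. They numbered 6 that rose and 44 that fell between pH 7 and pH 6.6. The pH 7 libraries enter the 2 steps with opposite signs, so a deviation in them alone moves a gene towards a turn. Serpinb6b, a serine protease inhibitor gene, was at 61.4, 83.2, 83.99, 101 and 118 CPM at pH 7.4, then at 39.9, 47.5, 41.8, 69.9 and 71.8 CPM at pH 7 and 289, 394, 405, 313 and 346 CPM at pH 6.6. It fell by 0.72 and then rose by 2.71 on the log2 scale. Il18bp, a decoy receptor gene for interleukin-18, turned the other way, from 0.58 to -2.53. So did the bicarbonate cotransporter gene Slc4a4 (0.70, then -2.50) and the collagen gene Col6a2 (0.80, then -2.17). For Slc4a4 the groups overlapped, since replicate 1 held 18.03 CPM at pH 6.6 and the lowest pH 7 library 14.3 CPM. The upper call behind the turn was lost for Il18bp without replicate 3 (0.54), for Slc4a4 without replicate 5 (0.59) or without the replicate block (0.57), and for Col6a2 without the block (0.74).

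Gene groups were described with lists written for this purpose. In the lower step, 18 of the 29 lists had a median below -0.4 and 4 a median above 0.4, beside a median of -0.08 over all 13819 genes. The most negative medians were those of S phase, nucleotide synthesis, serine and one-carbon enzymes, and interferon-stimulated genes, and the most positive that of memory and lymph node homing.

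**Figure D3:**
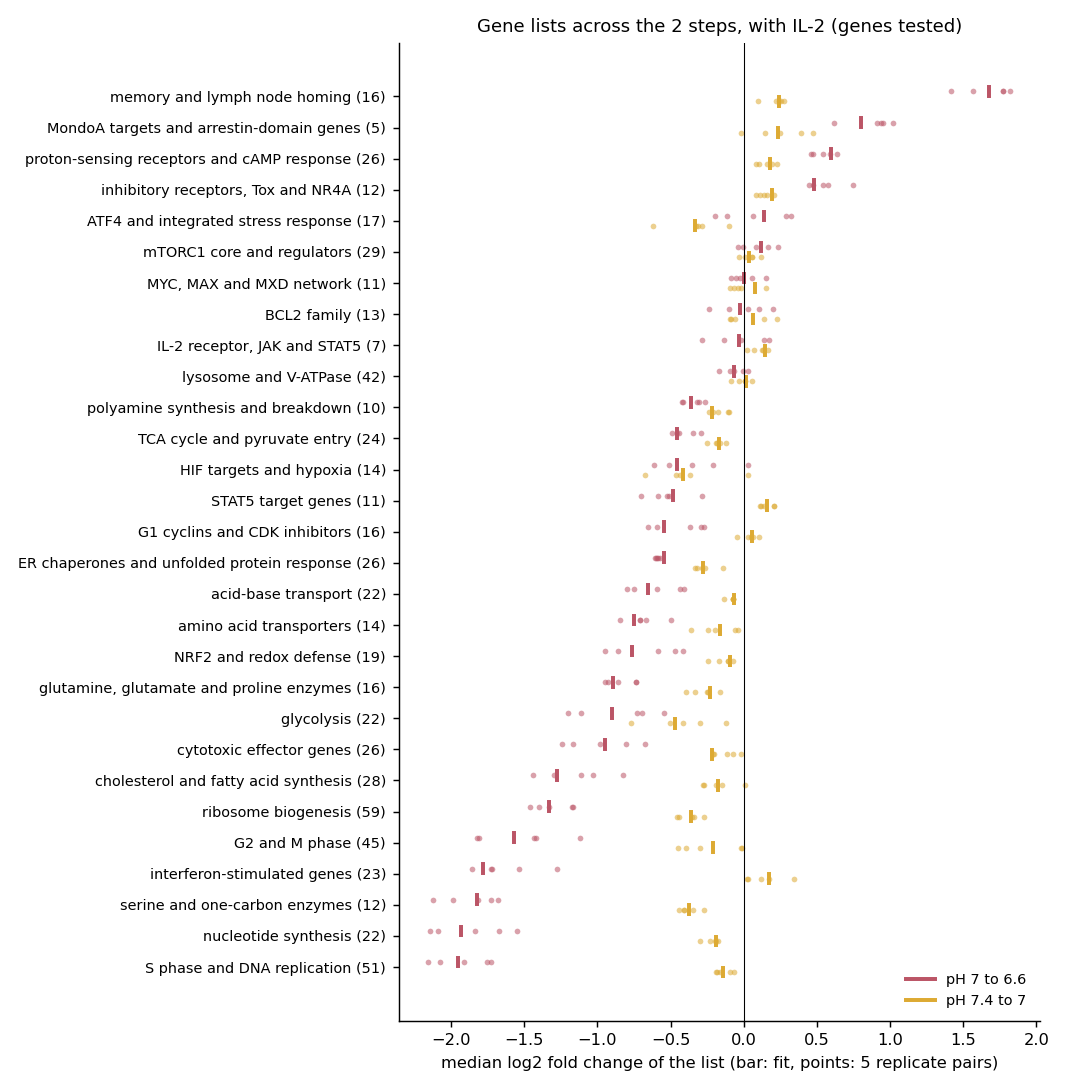
Median log2 fold change of each gene list in the step from pH 7 to pH 6.6 (red) and from pH 7.4 to pH 7 (yellow), both with IL-2; bars are the medians from the fit, points the medians in each of the 5 replicate pairs, and the number of genes tested stands in parentheses. The S phase list lies at -1.95 in the lower and -0.14 in the upper step, and the memory and homing list at 1.68 and 0.24.

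The IL-2 receptor chains fell while JAK1 rose. Il2rb was at 914, 1193, 1115, 1055 and 967 CPM at pH 7 and 558, 609, 504, 729.7 and 680.2 CPM at pH 6.6, a log2 fold change of -0.77 ± 0.097 (SE, edgeR adjusted p = 1.68e-08). Il2ra was at 558, 483, 481, 546 and 534 CPM at pH 7 and 387, 350.3, 394, 334 and 342 CPM at pH 6.6, a log2 fold change of -0.53 ± 0.11 (SE, edgeR adjusted p = 3.96e-05). Il2rg was at 363, 326, 357, 358 and 334 CPM at pH 7 and 282, 275, 292, 339 and 311 CPM at pH 6.6, a log2 fold change of -0.22 ± 0.075 (SE, edgeR adjusted p = 0.0105). For both Il2rb and Il2ra every pH 6.6 library was below every pH 7 library, as in 31.6% of all genes, whereas for Il2rg the groups overlapped. The Il2rg call was lost without replicate 1 (-0.10), 2 (-0.13) or 3 (-0.20), and 30.5% of its exon bases are shared with another gene on the same strand. Jak1 was at 824, 897, 903, 836 and 878 CPM at pH 7 and 1469.8, 1874, 2018, 1450.2 and 1622 CPM at pH 6.6, a log2 fold change of 0.95 ± 0.066 (SE, edgeR adjusted p = 2.36e-14). The lowest pH 6.6 library was above every pH 7 library, as in 24.1% of all genes. Stat5b rose (0.39 ± 0.068), and Jak3 was higher as well (0.35 ± 0.13) with overlapping groups and a call that was lost without replicate 4 (0.28). Stat5a had a log2 fold change of -0.032 ± 0.087 (edgeR adjusted p = 0.748). In the upper step 0 of these 7 genes passed, where 19% of all genes did. When only the groups compared were fitted, Il2rg (0.18), Jak3 (0.33), Stat5a (0.17) and Stat5b (0.19) passed there as higher. The difference of the steps was more negative for 3 of the 7 genes and more positive for 1, against 30.1% and 19.5% of all genes. It passed for Il2rb (-0.75 ± 0.16) and Jak1 (0.90 ± 0.12). It passed for Il2ra and Il2rg too, but these calls were lost under other settings, such as without replicate 1 (-0.34 and -0.26).

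Known STAT5 target genes were mostly lower. Of 11 tested, 7 were lower and 2 higher (40% and 32.5% of all genes), with a median of -0.48. Lta, the lymphotoxin gene, was at 61.4, 81.5, 99.5, 77.7 and 96.3 CPM at pH 7 and 18.5, 14.8, 13.7, 17.5 and 19.5 CPM at pH 6.6, a log2 fold change of -2.30 ± 0.12 (SE, edgeR adjusted p = 1.33e-17). Cish encodes a feedback inhibitor of IL-2 signaling. It was at 517, 613, 623, 514 and 474 CPM at pH 7 and 357, 355, 305, 519 and 472 CPM at pH 6.6, a log2 fold change of -0.48 ± 0.17 (SE, edgeR adjusted p = 0.012). The Cish groups overlapped, because replicates 4 and 5 at pH 6.6 reached the pH 7 range, and the call was lost without replicate 1 (-0.39), 2 (-0.32) or 3 (-0.34). Socs2 was at 107, 81.9, 96.5, 88.6 and 86.5 CPM at pH 7 and 85.8, 85.5, 102, 77.3 and 76.5 CPM at pH 6.6, with overlapping groups and a log2 fold change of -0.11 ± 0.090 (SE, edgeR adjusted p = 0.254). The 2 higher genes were Socs3, another feedback inhibitor (1.26 ± 0.19), and the kinase gene Pim1 (0.76 ± 0.078). Without IL-2 Pim1 went from a median of 129 to 328 CPM over the same pH step.

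Myc fell. It was at 136, 129, 133, 109 and 108 CPM at pH 7 and 71.8, 45.9, 46.9, 55.6 and 53.9 CPM at pH 6.6 (chr15:61985391-61990374, plus strand), a log2 fold change of -1.17 ± 0.11 (SE, edgeR adjusted p = 6.44e-11). At pH 7.4 it was at 148, 164, 173, 142 and 174 CPM, and the upper step passed as a fall (-0.38 ± 0.11, edgeR adjusted p = 0.0148), a call that was lost without replicate 5 (-0.31). The lower step was steeper (difference of the steps -0.79 ± 0.19, edgeR adjusted p = 0.000919). Mycn, the related gene, was at 27.3, 42.1, 44.2, 38.5 and 27.1 CPM at pH 7 and 5.55, 10.3, 7.47, 10.03 and 8.16 CPM at pH 6.6, a log2 fold change of -2.11 ± 0.11 (SE, edgeR adjusted p = 1.16e-17). Antagonists of MYC were split, since Mxi1, Mxd1, Mxd4 and Mnt rose and Mxd3 fell. Mxi1, which pairs with MAX and represses E-box genes, was at 23.7, 25.2, 28.4, 30.1 and 33.2 CPM at pH 7 and 96.1, 162, 168, 121 and 137 CPM at pH 6.6, a log2 fold change of 2.30 ± 0.22 (SE, edgeR adjusted p = 1.03e-10). Over the network of 11 genes tested, 5 rose and 5 fell (32.5% and 40% of all genes), with a median of 0.0035 that changed sign under 3 other settings. Mxd4, Mxd1, Mlxip and Mnt rose beside Mxi1 (0.50 to 1.98), and Mxd3, Mlx and Max fell beside Myc and Mycn (-2.06 to -0.46). Mlxip encodes MondoA, and of its 5 targets and related arrestin-domain genes 4 rose and 0 fell, with a median of 0.80. Txnip, the thioredoxin-interacting protein that limits glucose uptake, was at 742, 822, 811, 791 and 652 CPM at pH 7 and 2116, 2511, 2512, 2317 and 2302 CPM at pH 6.6, a log2 fold change of 1.62 ± 0.090 (SE, edgeR adjusted p = 1.11e-16). It had already risen in the upper step, by 0.77 ± 0.088, and the lower step was larger by 0.86 ± 0.15. A gene on the opposite strand covers 19.4% of the Txnip exons.

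Genes of ribosome biogenesis, a program known to be driven by c-Myc, fell for the most part. Of 59 genes tested, 54 fell (background 40%) and 1 rose, with a median of -1.33 and pair medians of -1.46 to -1.17. Nolc1, a nucleolar scaffold gene, was at 244, 218, 198, 215 and 217 CPM at pH 7 and 54.1, 38.02, 34.5, 56.7 and 58.7 CPM at pH 6.6, a log2 fold change of -2.18 ± 0.14 (SE, edgeR adjusted p = 2.38e-15). The exception was Taf1d, a subunit of the RNA polymerase I initiation factor, at 61.4, 46.3, 46.2, 61.99 and 73.7 CPM at pH 7 and 145, 158, 211, 116 and 143 CPM at pH 6.6, a log2 fold change of 1.41 ± 0.18 (SE, edgeR adjusted p = 5.86e-08). Npm1, Utp3, Polr1c and Emg1 did not pass (-0.17 to 0.13). In the upper step 42 of the 59 genes were already lower (background 9.83%), with a median of -0.36 against -0.0054 over all genes. The difference of the steps was more negative for 48 genes and more positive for 2, against 30.1% and 19.5% of all genes. An E-box was found in 13 of the 53 ribosome biogenesis promoters on hand, 24.5%, against 10.1% of all tested genes with a window. The share was higher in the lysosome list (12 of 32, 37.5%) and in that of proton sensing and cAMP (6 of 19, 31.6%). It was also higher in the MYC network (4 of 10, 40%) and the hypoxia list (3 of 11, 27.3%). These lists did not fall for the most part. Nucleotide synthesis genes, which fell for the most part, had a share of 25% (5 of 20). The share was lower in other lists, such as that of S phase genes (4 of 37, 10.8%), which fell. Most of these counts are small, and a link between the E-box share of a list and its direction was not tested.

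The mTORC1 core genes and their regulators did not share a direction. Of 29, 12 rose, 9 fell and 8 did not pass, a share called of 72.4%, like that of all genes tested, and the median was 0.12. Pik3ip1, an inhibitor of PI3K, was at 36.6, 26.6, 32.1, 26.6 and 27.1 CPM at pH 7 and 152, 186, 194, 147 and 153 CPM at pH 6.6, a log2 fold change of 2.49 ± 0.094 (SE, edgeR adjusted p = 2.51e-20). Flcn, Fnip1, Ddit4 and Tsc1 rose too (0.79 to 1.88), the last 2 known as brakes on mTORC1. Depdc5, a subunit of the GATOR1 complex that restrains mTORC1, fell (-0.81 ± 0.087). The genes for mTOR itself (0.032) and for TSC2 (0.017) did not pass.

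Cell cycle genes fell in the lower step. All 51 S phase genes tested were lower at pH 6.6 (background 40%), with a median of -1.95, in libraries where a smaller share of dividing cells and less of these transcripts per cell cannot be told apart. Cdc6, which loads the replicative helicase, was at 83.4, 94.2, 90.1, 95.4 and 92.6 CPM at pH 7 and 11.4, 14.9, 14.6, 17.3 and 22.2 CPM at pH 6.6, a log2 fold change of -2.50 ± 0.17 (SE, edgeR adjusted p = 9.22e-15). Uhrf1, which maintains DNA methylation at replication, was at 259.5, 329, 309, 269 and 274 CPM at pH 7 and 38.7, 47.6, 43.3, 58.3 and 59.8 CPM at pH 6.6, a log2 fold change of -2.51 ± 0.18 (SE, edgeR adjusted p = 1.02e-13). In both genes the pH 7.4 and pH 7 libraries overlapped, and the pH 6.6 libraries stood well below them. In the upper step 3 of the 51 genes passed, all lower (9.83% of all genes), and the list's median was -0.14. The difference of the steps was more negative in the lower step for 50 of the 51, against 30.1% of all genes. The E2F motif GGCGGGAA stood in 7 of 37 promoters of the list, 18.9%, against 4.32% of all tested genes with a window. Of 45 genes of G2 and M phase, 41 fell and 2 rose, with a median of -1.57. Cks1b, a subunit of cyclin-dependent kinases, was at 82.1, 85.3, 88.1, 93.5 and 92.2 CPM at pH 7 and 16.004, 13.6, 17.03, 19.2 and 18.8 CPM at pH 6.6, a log2 fold change of -2.38 ± 0.13 (SE, edgeR adjusted p = 9.18e-17). Mki67, which encodes the proliferation marker Ki-67, was at 898, 1126, 934, 1114 and 1334 CPM at pH 7 and 338, 406, 458, 317 and 360.4 CPM at pH 6.6, a log2 fold change of -1.57 ± 0.18 (SE, edgeR adjusted p = 6.45e-09). The 2 that rose were Cenpa, the centromeric histone H3, at 127, 156, 159, 174 and 173 CPM at pH 7 and 306, 501, 479, 353 and 359.8 CPM at pH 6.6, a log2 fold change of 1.33 ± 0.13 (SE, edgeR adjusted p = 1.39e-10), and Pttg1, the securin gene (0.62). The CHR element TTTGAA, known from promoters active in G2 and M phase, was in 27 of 38 promoters of this list, 71.1%, against 12.1% of all tested genes with a window. Both motifs were searched on both strands.

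Of 16 regulators of the G1 phase 5 rose and 9 fell, where 32.5% of all genes rose and 40% fell. Cdkn1b encodes the CDK inhibitor p27. It was at 144, 102, 114, 97.5 and 99.2 CPM at pH 7 and 534, 601, 697, 369 and 409.9 CPM at pH 6.6, a log2 fold change of 2.24 ± 0.18 (SE, edgeR adjusted p = 3.15e-12). Ccnd2, the cyclin D2 gene, was at 788, 796, 802, 740.2 and 688 CPM at pH 7 and 404, 365, 387, 495 and 474 CPM at pH 6.6, a log2 fold change of -0.84 ± 0.10 (SE, edgeR adjusted p = 8.43e-09). In neither gene did the groups overlap, as was the case for 24.1% of all genes (higher at pH 6.6) and 31.6% (lower). Cdkn2a, another CDK inhibitor gene, fell (-2.24 ± 0.14) after a fall in the upper step (-0.79 ± 0.13), while the upper steps of Cdkn1b (0.38 ± 0.18) and Ccnd2 (0.23 ± 0.10) did not pass, though both did when only the groups compared were fitted (0.41 and 0.25).

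**Figure D4:**
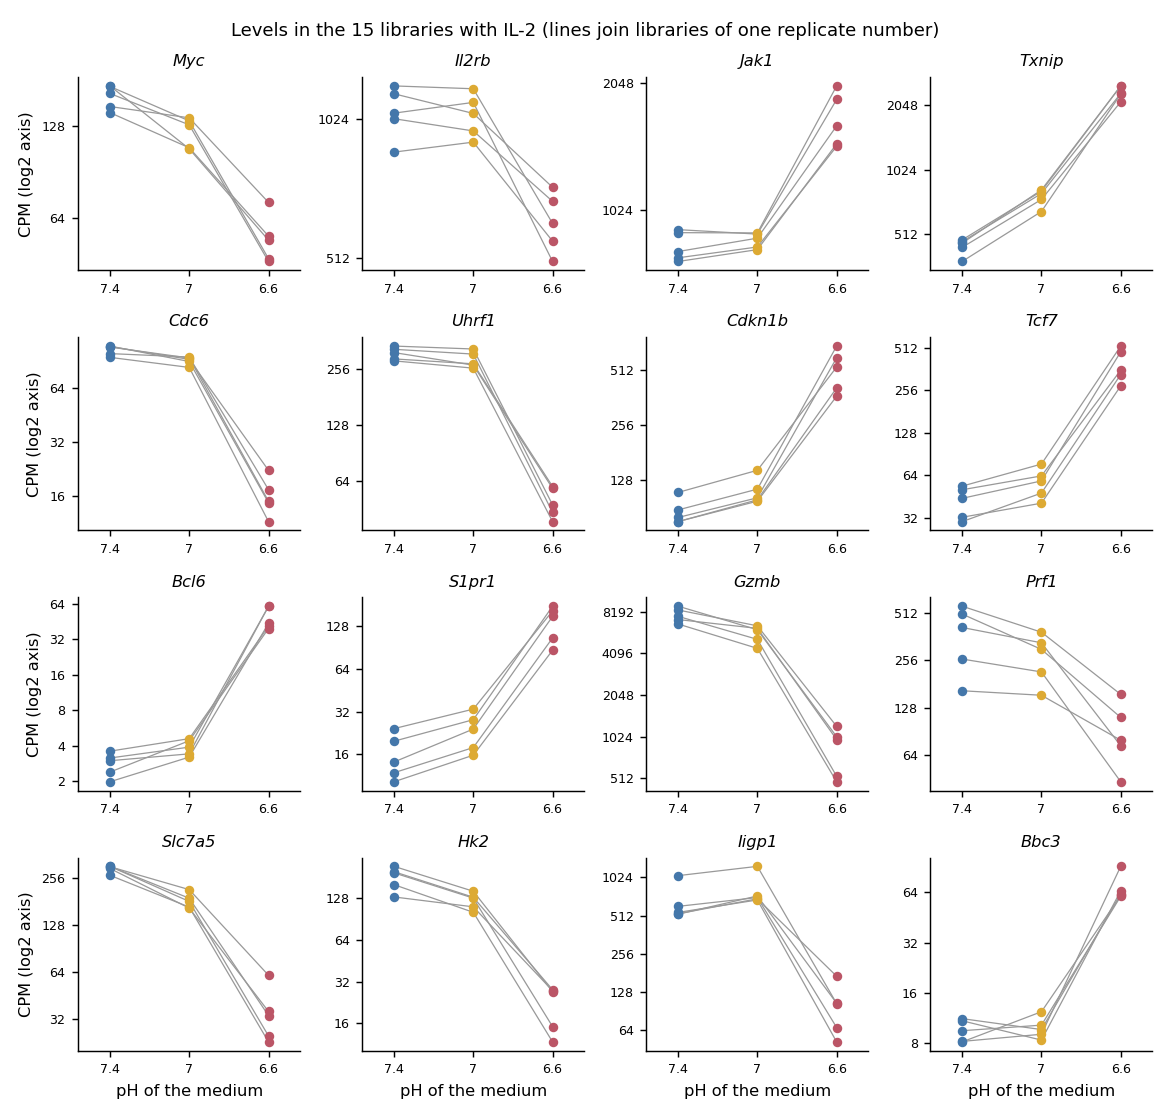
CPM (log2 axis, scaled per gene) of 16 genes in the 15 libraries with IL-2, by pH; each point is a library and lines join libraries of 1 replicate number. Cdc6, Uhrf1, Iigp1, Il2rb, Jak1, Bbc3, Bcl6, Cdkn1b, Prf1 and Hk2 passed the test in the lower step and not in the upper step. Of these, Cdc6, Iigp1, Bcl6, Cdkn1b, Prf1 and Hk2 gained an upper call under another setting. Myc, Txnip, Tcf7, S1pr1, Gzmb and Slc7a5 passed in both, and all but Txnip lost the upper call under another setting. Prf1 is the one gene whose pH 7 and pH 6.6 libraries overlap.

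Most genes on the lists of biosynthesis fell. In nucleotide synthesis, 21 of 22 genes fell (background 40%) and 0 rose, with a median of -1.93. Among 12 serine and one-carbon enzymes, 11 fell and 1 rose, with a median of -1.82. In the synthesis of cholesterol and fatty acids 27 of 28 genes fell and 0 rose, with a median of -1.27. Hsd17b7, an enzyme of cholesterol synthesis, was at 43.8, 55.1, 50.2, 51.6 and 56.1 CPM at pH 7 and 13.8, 6.72, 6.92, 12.3 and 12.9 CPM at pH 6.6, a log2 fold change of -2.28 ± 0.24 (SE, edgeR adjusted p = 7.69e-10). Of 10 polyamine genes 6 fell and 3 rose, where 40% of all genes fell and 32.5% rose. Srm, the spermidine synthase, was at 106, 98.1, 93.9, 97.2 and 90.4 CPM at pH 7 and 17.1, 7.96, 6.42, 18.4 and 15.6 CPM at pH 6.6, a log2 fold change of -2.93 ± 0.17 (SE, edgeR adjusted p = 5.29e-16). Smox, the spermine oxidase, was at 4.57, 6.55, 7.92, 7.54 and 7.19 CPM at pH 7 and 32.99, 52.9, 45.2, 42.2 and 46.1 CPM at pH 6.6, a log2 fold change of 2.70 ± 0.15 (SE, edgeR adjusted p = 1.84e-16). Odc1, the first enzyme of the path, fell by less (-0.38 ± 0.11), and 75.7% of its 50-base windows are unique among annotated transcripts.

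Nutrient uptake and central carbon metabolism changed more unevenly. Slc7a5, the light chain of the leucine transporter, was at 216, 181, 167, 164 and 189.9 CPM at pH 7 and 60.8, 24.8, 22.7, 35.6 and 33.6 CPM at pH 6.6, a log2 fold change of -2.44 ± 0.16 (SE, edgeR adjusted p = 4.84e-15). Its partner Slc3a2 was at 168, 143, 132, 152 and 167 CPM at pH 7 and 191, 239, 215, 187 and 201 CPM at pH 6.6, a log2 fold change of 0.45 ± 0.093 (SE, edgeR adjusted p = 6.3e-05). The chains of this transporter thus moved in opposite directions in the lower step, after falling together in the upper step (-0.70 ± 0.15 and -0.40 ± 0.092; without the replicate block the call for Slc7a5, at -0.68, was lost). Of 14 amino acid transporter genes, 9 fell and 4 rose (40% and 32.5% of all genes), and the lysosomal arginine sensor gene Slc38a9 rose the most (1.16 ± 0.076). Hk2, the hexokinase induced in activated T cells, was at 111, 128, 101, 129.8 and 143 CPM at pH 7 and 27.6, 15.2, 11.8, 28 and 27.1 CPM at pH 6.6, a log2 fold change of -2.57 ± 0.23 (SE, edgeR adjusted p = 2.97e-11). Over 22 glycolysis genes 12 fell, 2 rose and 8 did not pass, with a median of -0.90. The 2 that rose were Pfkfb3 (0.73 ± 0.24), whose product raises fructose 2,6-bisphosphate, and Gpi1 (0.43). In the TCA cycle 19 of 24 genes fell, by less (median -0.45), and Pcx, the pyruvate carboxylase, fell the most (-2.31 ± 0.18). Pycr1 and Prodh, which make and degrade proline, both fell (-1.87 ± 0.28 and -2.35 ± 0.39) from low levels, with pH 7 medians of 2.505 and 0.617 CPM. Asns, the asparagine synthetase, was at 60.6, 50.2, 48.4, 64.5 and 70.8 CPM at pH 7 and 20.9, 14.03, 12.2, 20.7 and 18.4 CPM at pH 6.6, a log2 fold change of -1.78 ± 0.12 (SE, edgeR adjusted p = 2.89e-14).

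Genes of memory and lymph node homing rose. Of 16 tested, 14 were higher (background 32.5%) and 2 lower, with a median of 1.68 and pair medians of 1.42 to 1.82. Tcf7, which encodes the transcription factor TCF1 of memory and stem-like T cells, was at 63.2, 58.3, 76.7, 40.5 and 47.8 CPM at pH 7 and 356, 481, 529, 275 and 332 CPM at pH 6.6 (chr11:52252371-52283014, minus strand), a log2 fold change of 2.78 ± 0.095 (SE, edgeR adjusted p = 3.22e-21). S1pr1, the receptor for exit from lymph nodes, was at 33.3, 24.1, 28.03, 15.8 and 17.8 CPM at pH 7 and 163, 149, 176, 86.3 and 105 CPM at pH 6.6, a log2 fold change of 2.52 ± 0.12 (SE, edgeR adjusted p = 5.9e-18). Klf2, the transcription factor that drives S1pr1, was at 4.29, 4.09, 5.49, 3.26 and 4.70 CPM at pH 7 and 17.9, 16.6, 18.04, 10.2 and 16.9 CPM at pH 6.6, a log2 fold change of 1.85 ± 0.16 (SE, edgeR adjusted p = 2.91e-12). Il7r, the interleukin-7 receptor, was at 3.30, 1.77, 1.36, 1.67 and 1.14 CPM at pH 7 and 10.3, 6.80, 5.41, 4.23 and 4.62 CPM at pH 6.6, a log2 fold change of 1.76 ± 0.19 (SE, edgeR adjusted p = 7.92e-10). In these genes the lowest library at pH 6.6 was above the highest at pH 7, as in 24.1% of all genes. Il7r and Klf2 stayed at low levels. Id3, which encodes an inhibitor of E proteins, was among the 2 that fell (-0.99 ± 0.25). In the upper step 6 of the 16 passed as higher and 1 as lower (9.15% and 9.83% of all genes), with a median of 0.24. The difference of the steps was more positive for 11 and more negative for 0, against 19.5% and 30.1% of all genes.

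Cytotoxic effector genes fell for the larger part. Of 26, 17 were lower and 5 higher (40% and 32.5% of all genes), with a median of -0.95. Gzmb, which encodes granzyme B, was at 6228, 5184, 4461, 6495 and 6091 CPM at pH 7 and 976, 529, 482, 1215 and 1023 CPM at pH 6.6, a log2 fold change of -2.80 ± 0.18 (SE, edgeR adjusted p = 2.66e-15). Prf1, the perforin gene, was at 154, 329.7, 216, 385 and 299 CPM at pH 7 and 79.7, 73.5, 43.5, 155 and 111 CPM at pH 6.6, a log2 fold change of -1.59 ± 0.16 (SE, edgeR adjusted p = 3.29e-10). Each pair of Prf1 libraries fell, yet the groups overlapped, since replicate 1 at pH 7 was at 154 CPM and replicate 4 at pH 6.6 at 155 CPM. Ifng was at 18.4, 28.9, 18.9, 41.4 and 28.6 CPM at pH 7 and 2.14, 2.60, 1.97, 9.09 and 4.66 CPM at pH 6.6, a log2 fold change of -2.79 ± 0.27 (SE, edgeR adjusted p = 8.26e-11). Of the Ifng exon bases 26% are shared with another gene on its strand. Ccl5, a chemokine gene known from memory CD8+ T cells, went the other way, at 25.4, 20.5, 24.7, 19.1 and 12.4 CPM at pH 7 and 62.7, 72.002, 88.5, 63.8 and 59.6 CPM at pH 6.6, a log2 fold change of 1.78 ± 0.12 (SE, edgeR adjusted p = 7.05e-15). Zeb2, Gzmm, Prdm1 and Fasl were the other 4 that rose (0.37 to 0.89).

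Among 12 genes of inhibitory receptors with Tox and the NR4A factors, 7 rose and 4 fell (32.5% and 40% of all genes). Ctla4 was at 70.9, 53.5, 54.3, 63.1 and 62.9 CPM at pH 7 and 331, 427, 512, 318 and 339 CPM at pH 6.6, a log2 fold change of 2.65 ± 0.18 (SE, edgeR adjusted p = 3.82e-14). Cd160 was at 160.3, 140.2, 139.6, 145 and 124 CPM at pH 7 and 52.7, 29.7, 37.2, 61.4 and 54.4 CPM at pH 6.6, a log2 fold change of -1.60 ± 0.12 (SE, edgeR adjusted p = 1.71e-13). Tox, Entpd1 and Havcr2 fell as well (-0.87 to -0.86), so the receptors did not move together. Nr4a1, Pdcd1, Tigit and Nr4a2 rose (1.57 to 3.27), as did Btla and Lag3 (0.50 and 0.45), while Nr4a3 did not pass (0.010). The rise of 3.27 did not meet the limits of expression or of agreement over pairs under which Ctla4 was the largest rise of the list. Levels of these genes are not given here.

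Genes of proton sensing and of the cAMP response rose more often than they fell. Of 26, 19 were higher (background 32.5%) and 4 lower, with a median of 0.60. Pde4d, a phosphodiesterase gene that is itself induced by cAMP, was at 45.4, 33.8, 34.3, 32.2 and 35.995 CPM at pH 7 and 172, 212, 218, 148 and 182 CPM at pH 6.6, a log2 fold change of 2.35 ± 0.12 (SE, edgeR adjusted p = 8.17e-18). Gpr65, a proton-sensing receptor that raises cAMP, was at 77.7, 59.8, 57.6, 60.1 and 57.6 CPM at pH 7 and 36.5, 25.5, 31.7, 29.1 and 30.1 CPM at pH 6.6, a log2 fold change of -1.03 ± 0.089 (SE, edgeR adjusted p = 4.55e-12). The receptor genes of the list did not share a direction, since Gpr132 rose (1.76) while Gpr65 fell. A gene on the opposite strand covers 24.7% of the Gpr65 exons. Transporters and enzymes of acid and base handling fell in 14 of 22 cases and rose in 3 (40% and 32.5% of all genes), with a median of -0.65. Car12, a membrane carbonic anhydrase, was at 53.4, 32.3, 33.5, 27.5 and 31.7 CPM at pH 7 and 8.09, 2.12, 3.61, 6.91 and 6.996 CPM at pH 6.6, a log2 fold change of -2.69 ± 0.19 (SE, edgeR adjusted p = 3.34e-14). Emb, the ancillary subunit of lactate and proton cotransporters, was at 371, 292, 317, 306 and 345 CPM at pH 7 and 826, 1091, 1299, 829.5 and 960.3 CPM at pH 6.6, a log2 fold change of 1.60 ± 0.097 (SE, edgeR adjusted p = 1.04e-15). The lactate and proton cotransporter genes Slc16a1 (-2.29) and Slc16a3 (-2.25) fell, and the proton channel gene Hvcn1 (0.057) did not pass.

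Of 13 genes of the BCL2 family 5 rose and 4 fell, shares near the 32.5% and 40% of all genes. Bcl2l11, which encodes BIM, the killer of T cells deprived of cytokine, was at 245, 164, 192, 145 and 138 CPM at pH 7 and 967, 1204, 1229.7, 785 and 867 CPM at pH 6.6, a log2 fold change of 2.52 ± 0.13 (SE, edgeR adjusted p = 2.17e-17). Bbc3, described above, and Bmf (2.35) rose by a similar amount. Bid, also a death gene, fell (-1.72 ± 0.10), as did the survival genes Bcl2 (-0.47) and Bcl2l1 (-0.85), while the survival gene Mcl1 rose (0.59).

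Stress genes were called in both directions. Of 17 ATF4 and integrated stress response genes 6 rose, 5 fell and 6 did not pass, with a median of 0.14, in a background of 32.5% higher and 40% lower. Ddit3, which encodes CHOP, was at 9.93, 7.63, 8.73, 10.2 and 7.57 CPM at pH 7 and 28.4, 29.5, 25.8, 25.5 and 24.2 CPM at pH 6.6, a log2 fold change of 1.61 ± 0.16 (SE, edgeR adjusted p = 7.13e-11), whereas Asns, a target of ATF4, fell as given above. In the endoplasmic reticulum 17 of 26 genes fell and 5 rose. Ern1, which encodes the stress sensor IRE1, was at 20.2, 22.9, 19.7, 20.9 and 19.5 CPM at pH 7 and 58.01, 76.2, 55.1, 55.8 and 60.3 CPM at pH 6.6, a log2 fold change of 1.56 ± 0.097 (SE, edgeR adjusted p = 1.82e-15). Eif2ak3, which encodes the sensor PERK, rose as well (1.15), while the chaperone gene Hspa5 fell (-0.93). Of 19 genes of redox defense 13 fell and 3 rose, with a median of -0.76. Prdx1 was at 594, 457, 439, 567 and 598 CPM at pH 7 and 166, 106, 127, 163 and 164 CPM at pH 6.6, a log2 fold change of -1.88 ± 0.12 (SE, edgeR adjusted p = 8.73e-15), and Nfe2l2, which encodes the regulator NRF2, rose (0.64 ± 0.10) with overlapping groups. Of 14 hypoxia genes 5 were higher and 7 lower, shares near those of all genes. Hif1a rose (0.65 ± 0.12) and Bnip3 fell (-1.49 ± 0.22). In the lysosome list 13 genes rose, 16 fell and 13 did not pass, a share called of 69% beside the 72.4% of all genes, and the median was -0.065. Npc2, a cholesterol carrier of the lysosome, rose (1.02 ± 0.089) and the glucuronidase gene Gusb fell (-1.37 ± 0.098).

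Interferon-stimulated genes fell without exception among those tested. All 23 were lower at pH 6.6 (background 40%), with a median of -1.78. In the upper step 4 were higher and 0 lower (9.15% and 9.83% of all genes), with a median of 0.18. Iigp1 was at 1254, 681, 712, 695 and 732 CPM at pH 7 and 103, 51.6, 66.99, 170.1 and 104 CPM at pH 6.6, a log2 fold change of -3.07 ± 0.28 (SE, edgeR adjusted p = 7.52e-11). Replicate 1 held the most Iigp1 at pH 7 and replicate 4 at pH 6.6, and the groups lay far apart. Usp18, which limits interferon signaling, was at 68.4, 50.4, 43.9, 44.6 and 42.1 CPM at pH 7 and 15.8, 6.72, 6.54, 8.63 and 7.33 CPM at pH 6.6, a log2 fold change of -2.51 ± 0.16 (SE, edgeR adjusted p = 5.04e-15). The difference of the steps was more negative in the lower step for 21 of the 23, against 30.1% of all genes.

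The same pH step was also made without IL-2, in 10 libraries that are not among those above. There, 9205 genes passed (66.6%), with 4268 (30.9%) higher and 4937 (35.7%) lower at pH 6.6, and with library size scaling the split was 3040 higher and 6260 lower. The change of the step with IL-2 differed from that without IL-2 for 8433 genes (61%) in the interaction test, 4247 of them more positive and 4186 more negative with IL-2, or 5440 and 3185 with library size scaling. With IL-2 and without it, the cells were 1.30 log2 units apart at pH 7 and 0.451 apart at pH 6.6, as root mean square distances between group means. The median over all genes was -0.042 without IL-2.

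Cell cycle lists had opposite medians with and without IL-2. Of the 51 S phase genes, 41 rose and 2 fell without IL-2 (30.9% and 35.7% of all genes), with a median of 0.67 against -1.95 with IL-2, and the interaction was more negative with IL-2 for all 51 (30.3% of all genes). Of the 45 genes of G2 and M phase, 41 rose and 0 fell without IL-2 (median 1.23 against -1.57). Cdc6 fell with IL-2 but went from a median of 1.26 to 5.97 CPM without it, a log2 fold change of 2.53 ± 0.22 (SE, edgeR adjusted p = 1.7e-11), so that the steps differed by -5.04 ± 0.27. Uhrf1 went from 4.87 to 16.9 CPM without IL-2 (2.14 ± 0.20), and Pclaf from 7.26 to 24.2 CPM (1.75 ± 0.21). These levels without IL-2 stayed below the levels at pH 6.6 with IL-2. Myc too rose without IL-2, from 15.4 to 26.04 CPM (0.78 ± 0.12), against its fall with IL-2, and the steps differed by -1.95 ± 0.16 (edgeR adjusted p = 6.73e-12).

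Memory and homing genes had a median of 1.68 with IL-2 and of 0.021 without it. Without IL-2, 5 of the 16 were higher, 6 lower and 5 did not pass, where 30.9% of all genes were higher and 35.7% lower. The interaction was more positive for 13 of 16 and more negative for 0, against 30.7% and 30.3% of all genes. S1pr1 was at a median of 158 CPM at pH 7 and 174 CPM at pH 6.6 without IL-2 (0.033 ± 0.11), within the range of the pH 6.6 libraries with IL-2. Tcf7 went from 801 to 606 CPM without IL-2 (-0.42 ± 0.088) and Il7r from 56.9 to 8.51 CPM (-2.55 ± 0.15). Jak1 went from 2662 to 2457 CPM (-0.19 ± 0.065), a call that was lost without replicate 3 (-0.15) or without the replicate block (-0.19). Each of these 4 genes passed the interaction test, which for S1pr1 was part of the rule that chose it. The differences were 2.49 for S1pr1, 3.20 for Tcf7, 4.32 for Il7r and 1.14 for Jak1.

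Some genes passed the step with IL-2 at 2-fold or more and passed the interaction, while their step without IL-2 lay within 0.5 of 0 by its interval. Under the same lower limit of expression (mean log2 CPM of at least 3), these numbered 160 rises and 321 falls. Arl5c (3.40 ± 0.14 with and -0.18 ± 0.11 without IL-2), S1pr1 and Pik3ip1 (0.11 ± 0.088 without) were the largest rises, and Ppa1 (0.14 ± 0.18 without), Ranbp1 (-2.52 ± 0.12 with, 0.012 ± 0.13 without) and Slc7a5 (0.15 ± 0.16 without) the largest falls. For Ppa1 the medians without IL-2 were 4.84 and 5.91 CPM, below every library with IL-2. Under this limit, genes that passed with and without IL-2 and changed at least 2-fold in opposite directions numbered 6 that rose and 121 that fell with IL-2. The rises were led by Slc26a11 (2.41 ± 0.13 with, -1.39 ± 0.11 without), Tbc1d4 (2.04 ± 0.11 with, -1.70 ± 0.11 without) and the actinin gene Actn1 (1.17 ± 0.13 with, -1.88 ± 0.12 without), and the falls by Cdc6, Uhrf1 and Pclaf.

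For 4 genes picked after their values were seen, the interaction did not pass, and the interval bounds how far the steps may differ. Iigp1 fell by 3.07 with and 3.10 without IL-2, a difference of 0.033 with a 95% interval of -0.73 to 0.80. Plk2 rose by 2.71 and 2.67, a difference of 0.040 with an interval of -0.48 to 0.56. Il2rb fell by 0.77 and 0.63, a difference of -0.14 with an interval of -0.42 to 0.13. For Cd160 the difference was 0.19, with an interval of -0.16 to 0.53. Of the interferon-stimulated genes, 22 of 23 fell without IL-2 as well (35.7% of all genes), with a median of -1.22. The interaction passed for 10 of the 23 (43.5%), a smaller share than the 61% of all genes.

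**Figure D5:**
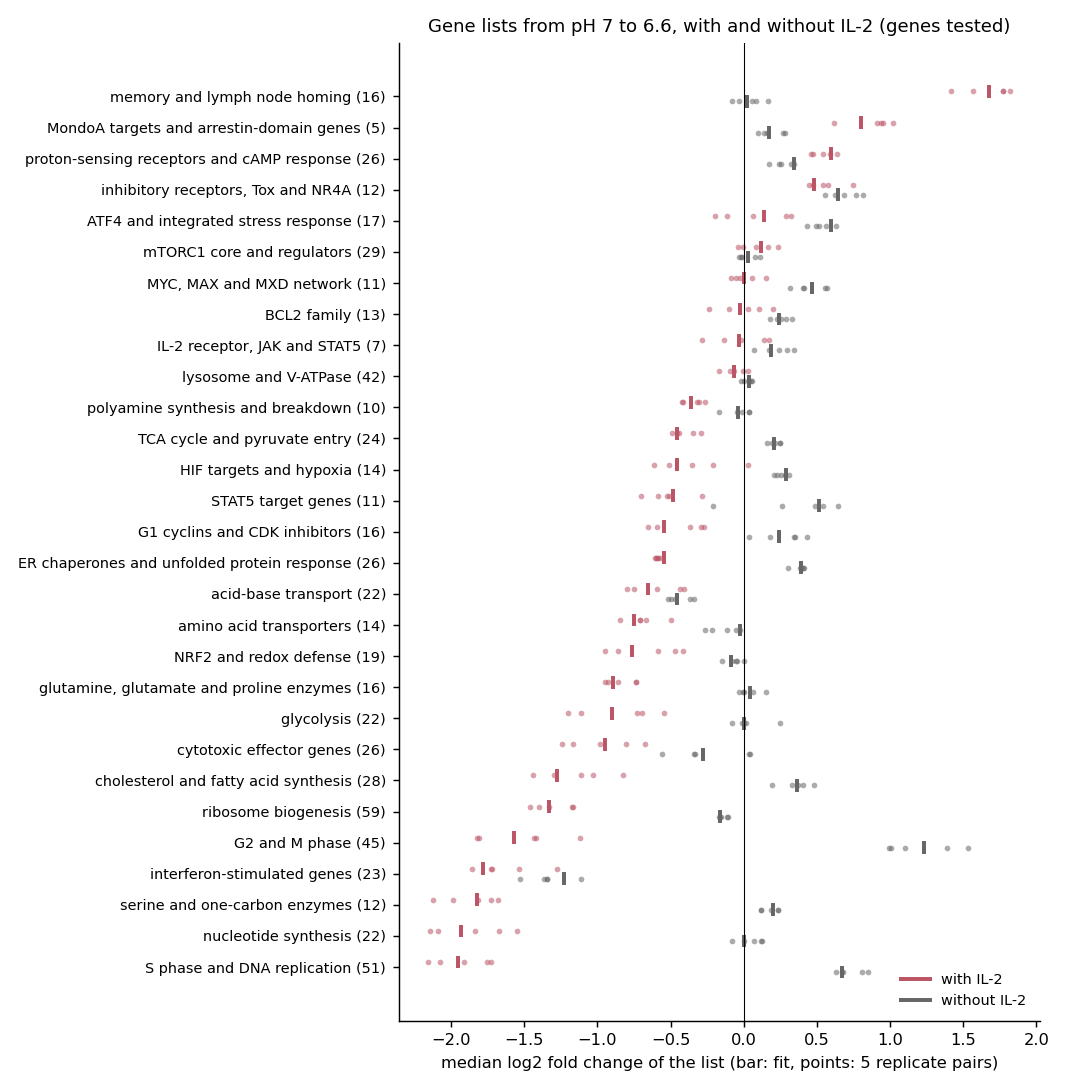
Median log2 fold change of each gene list from pH 7 to pH 6.6 with IL-2 (red) and without IL-2 (grey); bars are medians from the fit, points the 5 replicate pairs, and genes tested stand in parentheses. S phase genes lie at -1.95 with and 0.67 without IL-2, memory and homing genes at 1.68 and 0.021, and interferon-stimulated genes at -1.78 and -1.22.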

How the data were processed

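Raw counts per gene were deposited by the authors, 1 file per library. They come from a stranded mRNA kit (per the labels), and the submitters' processing notes name cutadapt 1.8, STAR 2.5.2b, HTSeq 0.6.1 and GRCm38; annotation and strand setting are not given in the sources used here. The 5 summary lines without a gene entered neither library sizes nor tests, and reads on no feature had median shares of 5.13% and 7.86% at pH 7 and pH 6.6.

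Of 48709 genes, 13819 passed filterByExpr (minimum count 10). Counts of all 35 libraries were fitted with edgeR 4.0.16 (R 4.3.3; TMM, robust quasi-likelihood test, Benjamini-Hochberg adjustment at 0.05) with 7 groups and the replicate number as a block. All libraries share 1 estimate of the spread. Same-numbered libraries at pH 7 and pH 6.6 deviated together in 5 of 5 pairs (r of 0.118 to 0.457). Over 20 pairs with different numbers r was -0.253 to 0.130, with a median of -0.058, so the ranges overlap. Deviations from a group mean sum to 0, so the values of different numbers are not an independent baseline. CPM are counts per 1000000 after TMM scaling; levels are compared within a gene only. Intervals are 95%. On simulated counts for the lower step (13391 genes, 200 changed), 188 of the changed genes were found in 197 calls, 133 of 133 with a 2-fold change or more. The simulation had the same spread for all genes, no effect of the replicate number and far fewer changed genes than the real step. It therefore cannot give the accuracy of the calls in the real step.

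Named genes were the largest changes, those in each of 29 lists (620 genes tested) and in each pattern across pH and IL-2, with a fixed panel; further list members were chosen after their values were seen, and a few genes are not reported here. The members and lists were chosen with earlier results of these data known. Replicates are separate samples by their labels, and p-values rest on the spread left among libraries after the replicate block, estimated over all 7 groups. Gene positions and shared bases come from GENCODE vM21.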

Additional observations from a re-analysis of the deposited data

Results flagged for a closer look

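Replicate 1 at pH 7 stood apart in many genes. Of 304 groups of 5 libraries checked by Dixon's criterion, 21 held a library whose gap to the others was beyond the 95% limit, and chance alone gives about 1 in 20. In 13 of the 21 cases it was replicate 1 at pH 7. Its levels were 42.4 CPM for Klhl24, 87.5 CPM for Tyms, 52.6 CPM for Jpt2, 1254 CPM for Iigp1, 165 CPM for Pim1, 77.7 CPM for Gpr65, 87.5 CPM for Nfe2l2, 45.4 CPM for Pde4d, 53.4 CPM for Car12, 119 CPM for Asf1b, 36.2 CPM for Il18bp and 69.3 CPM for Slc4a4, and its mean log2 CPM over the glycolysis list was 6.61. The other 8 cases lay in other libraries. At pH 6.6 replicate 1 stood apart with 27.2 CPM for Coq8a, 15.8 CPM for Usp18, 86.3 CPM for Ldlrad4 and 18.03 CPM for Slc4a4, replicate 2 with 76.2 CPM for Ern1 and 91.7 CPM for Bbc3, and replicate 4 with 10.2 CPM for Klf2, and at pH 7 replicate 5 with 263 CPM for Lif. Without replicate 1 the lower step kept its direction in each of these genes, and its part in their values was not tested further.

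The step from pH 7 to pH 6.6 differed with and without IL-2 for 8433 of 13819 genes in the interaction test of edgeR. Of 40 genes compared with and without IL-2, 34 passed it, beside 61% of all genes. Some of the 40 were chosen by their values with and without IL-2, so this count describes the choice. The calls of Il2rg (-0.22 with library size scaling) and Ccnd2 (-0.37 without replicate 2) were lost under another setting. The log2 fold change with IL-2 minus that without was 3.58 for Arl5c, 1.14 for Jak1, 2.47 for Klf2, 4.32 for Il7r, 3.20 for Tcf7, 2.002 for Cdkn1b, 1.47 for Txnip, 1.27 for Bcl2l11, 2.37 for Pik3ip1, 2.49 for S1pr1, 3.80 for Slc26a11, 3.74 for Tbc1d4 and 3.05 for Actn1, the genes for which it was positive. It was -3.31 for Ppa1, -1.95 for Myc, -1.20 for Il2ra, -0.40 for Il2rg, -1.17 for Cish, -1.69 for Socs2, -0.56 for Pim1, -3.25 for Gzmb, -1.20 for Prf1, -0.55 for Ccnd2, -2.40 for Mki67, -0.86 for Gpr65, -2.59 for Slc7a5, -1.10 for Slc3a2, -2.53 for Hk2, -1.77 for Odc1, -3.52 for Pycr1, -4.60 for Pclaf, -2.53 for Ranbp1, -5.04 for Cdc6 and -4.65 for Uhrf1, the genes for which it was negative.

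In 7 gene lists the median moved one way in 5 of 5 pairs with IL-2 and the opposite way in 5 of 5 pairs without IL-2. This difference between list medians was not tested. The median with IL-2 minus that without was -2.03 for serine and one-carbon enzymes, -0.66 for the TCA cycle, -1.64 for cholesterol and fatty acid synthesis, -2.62 for S phase, -2.80 for G2 and M phase, -0.79 for G1 regulators and -0.94 for chaperones of the endoplasmic reticulum.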

How the results depend on the processing

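Each result was recomputed with RLE normalization, plain library sizes, DESeq2, looser and stricter count filters, only the groups compared, without the replicate block, with a 2-fold threshold, and with each replicate left out. Over 123 named genes, the lower step with IL-2 reversed in 0 cases, and its call was lost for Il2rg, Jak3, Cish and Mt2 under the settings given beside them or, for Il2rg, also with RLE normalization (-0.15) and only the groups compared (-0.15), and for Jak3 with the looser filter (0.33). It was gained for 5 genes. Under at least 1 setting the upper call was lost for 26 of the 54 named genes that had it and gained for 32, the difference of the steps was lost for 12 of 110 and gained for 4, the step without IL-2 was lost for 18 of 96 and gained for 14, and the interaction was lost for 13 of 102 and gained for 3. The step without IL-2 reversed once, for Idh3b under library size scaling (-0.15). The median over all genes lay between -0.10 and 0.0013 over these settings, against -0.08.

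The replicate block was part of the model because the study's tests were paired. Without the block 9493 genes passed in the lower step, 1660 in the upper step (755 higher, 905 lower), 5999 in the difference of the steps, 8621 in the step without IL-2 and 7803 in the interaction. For Mt2 the lower step (-0.72) passed only with the block. The upper calls of Tcf7 (0.45), S1pr1 (0.57) and Gzmb (-0.45) were lost without it, that of Gzmb also without replicate 2, 3, 4 or 5 (-0.48 to -0.43), with the looser filter (-0.46) and with library size scaling (-0.41).

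Requiring a 2-fold change left, by construction, fewer calls: 3824 (1609 higher, 2215 lower) in the lower step, 203 (145, 58) in the upper step, 2946 (1039, 1907) in their difference, 2711 (807, 1904) without IL-2 and 3745 (2101, 1644) in the interaction. In the upper step, fitting only the groups compared gave 4388 calls (2305 higher, 2083 lower), among them Cdc6 (-0.17), Iigp1 (0.36) and Dna2 (0.22), and library size scaling gave 866 lower. Leaving out a replicate gave 1283 to 2425 calls there, 618 to 1128 higher and 637 to 1297 lower. The cause of these shifts was not tested.

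List medians near 0 changed sign in 4 lists. For the IL-2 receptor, JAK and STAT5 genes (-0.032) the median was above 0 under 7 settings, up to 0.071 without replicate 1. For the BCL2 family (-0.022) it was above 0 under 7, up to 0.079 without replicate 2. For the MYC network (0.0035) it was below 0 under 3, down to -0.035 without replicate 3, and for the lysosome (-0.065) above 0 under 2, at 0.00025 with RLE normalization and -0.069 to 0.012 with a replicate left out. The other 25 list medians kept their sign. The other ranges with a replicate left out were -0.38 to -0.27 for polyamine genes, -0.82 to -0.62 for amino acid transporters, -0.46 to -0.36 for the TCA cycle, -0.58 to -0.47 for the endoplasmic reticulum, 0.075 to 0.24 for mTORC1, 1.62 to 1.86 for memory and homing, 0.58 to 0.69 for proton sensing and cAMP, and -1.84 to -1.55 for interferon-stimulated genes. The stricter filter, which tests fewer genes, gave -0.48 for amino acid transporters, -0.47 for glutamine enzymes, -0.31 for G1 regulators, -0.41 for the endoplasmic reticulum, -0.26 for acid-base transport and -1.54 for interferon-stimulated genes. With only the groups compared, amino acid transporters were at -0.59 and the endoplasmic reticulum at -0.48; the latter was at -0.48 with RLE normalization, -0.53 with library size scaling, -0.48 with DESeq2 and -0.57 with the looser filter.

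Bulk libraries give no values per cell, counting intervals would cover counting error only, and the strand setting of the deposited counts is not given in the sources used here.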
